A study of Homo sapiens with 5 samples.

Results

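Binding of the transcription factor TEAD4 in LX-2 cells is described here for 10 canonical YAP-TEAD target genes: ANKRD1, AMOTL2, AXL, F3, CRIM1, NT5E, DOCK5, NUAK2, PTPN14 and MYOF. The genes were taken as listed, all 10 matched the annotation, and they are 10 of its 20007 protein-coding genes. A TEAD4 peak was assigned to a gene when its summit, the base with the strongest signal, lay in the gene body or within 50 kb of any transcription start site (TSS) of the gene. By this rule 69 of the 21113 TEAD4 peaks lay at the 10 genes, and none was shared between members.

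LX-2 is an established human hepatic stellate cell line, used as a model of myofibroblasts of the fibrotic liver. All samples were LX-2 cells that carried no engineered allele by the labels and received only DMSO. They comprised 3 TEAD4 ChIP samples (chromatin immunoprecipitation, in which DNA bound by a protein is enriched with an antibody and sequenced) and 2 input samples of chromatin that was not enriched. Peaks came from TEAD4 replicates 1 and 3 as a single list, since replicate 2 had been left out upstream as too discordant, so no value below has a spread between replicates, no test between samples could be made and the depth per sample is unknown. The list measures no RNA, so neither the expression of these genes nor markers of the cell line could be checked.

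TEAD proteins bind DNA at the sequence ACATTCC or close variants of it. They activate transcription together with YAP and TAZ, coactivators that bind no DNA themselves and that the kinases of the Hippo pathway keep out of the nucleus. In stellate cells and fibroblasts, YAP and TAZ respond to a stiff matrix and to spreading, and AP-1 factors (dimers of FOS and JUN proteins, motif TGACTCA or TGAGTCA) often bind the same enhancers. The 10 genes include restraints of YAP itself (AMOTL2, PTPN14), an AMPK-related kinase (NUAK2), proteins of the nucleus, membrane and cytoskeleton (ANKRD1, MYOF, DOCK5) and proteins of the cell surface (AXL, F3, NT5E, CRIM1).

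The sequences below are shown because they hold the TEAD motif, or its core CATTCC, at the peaks described in the following paragraphs. Each runs 5′ to 3′ on the plus strand of hg38, 60 bp to either side of the summit and further where the motif lay outside. For the first 6, capitals mark ACATTCC, which reads GGAATGT where the motif is on the minus strand, in the strongest peak of the gene that held it. The peaks of AXL and ANKRD1 held no ACATTCC within 100 bp of a summit. For these genes, capitals mark CATTCC on the plus strand or its complement, GGAATG. The peaks shown are the strongest AXL peak and the stronger ANKRD1 promoter peak, and they were chosen after their values were seen. The stretches are chr3:134374455-134374575 for AMOTL2, chr1:205301535-205301655 for NUAK2, chr2:36486744-36486864 for CRIM1, chr6:85403751-85403871 for NT5E, chr10:93458851-93458998 for MYOF, chr1:214447098-214447218 for PTPN14, chr19:41223570-41223690 for AXL and chr10:90921289-90921409 for ANKRD1.
AMOTL2: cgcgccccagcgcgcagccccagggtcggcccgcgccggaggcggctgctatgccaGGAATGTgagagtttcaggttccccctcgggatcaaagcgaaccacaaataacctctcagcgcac
NUAK2: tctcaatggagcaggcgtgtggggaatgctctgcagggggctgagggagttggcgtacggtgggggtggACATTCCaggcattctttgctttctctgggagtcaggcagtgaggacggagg
CRIM1: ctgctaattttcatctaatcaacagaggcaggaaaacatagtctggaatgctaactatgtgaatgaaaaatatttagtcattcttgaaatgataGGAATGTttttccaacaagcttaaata
NT5E: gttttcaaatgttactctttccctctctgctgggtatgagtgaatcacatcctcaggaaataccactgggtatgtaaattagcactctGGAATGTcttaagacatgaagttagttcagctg
MYOF: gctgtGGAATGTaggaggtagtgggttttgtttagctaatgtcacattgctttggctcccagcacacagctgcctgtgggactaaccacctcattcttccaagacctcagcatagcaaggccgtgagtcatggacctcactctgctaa
PTPN14: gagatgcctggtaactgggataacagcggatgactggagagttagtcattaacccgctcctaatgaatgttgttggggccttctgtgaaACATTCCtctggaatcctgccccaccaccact
AXL: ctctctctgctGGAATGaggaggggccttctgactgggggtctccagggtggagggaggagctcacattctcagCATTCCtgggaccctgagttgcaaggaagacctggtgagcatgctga
ANKRD1: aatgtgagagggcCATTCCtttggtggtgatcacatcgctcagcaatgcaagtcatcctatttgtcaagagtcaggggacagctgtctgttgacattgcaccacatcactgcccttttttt

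At least 1 TEAD4 peak lay at each of the 10 genes, while 56.2% of protein-coding genes had a peak by the same rule. The number ran from 2 at F3 to 24 at CRIM1, with a median of 5.5 against 1 over all protein-coding genes. Of the 10 genes, 6 had 5 peaks or more, against 7.2% of protein-coding genes. Genes differ in the length searched, which was 100001 bp for ANKRD1 and 325309 bp for DOCK5 against a median of 112471 bp over all genes. Per 100 kb searched, the members ran from 1.84 peaks at DOCK5 to 9.31 at CRIM1, with a median of 3.36 against 0.67 over all genes, and all 10 lay above that median. Since the members are known targets of this factor and peaks at one gene share a locus, these counts describe the list and were not tested.

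**Figure D1:**
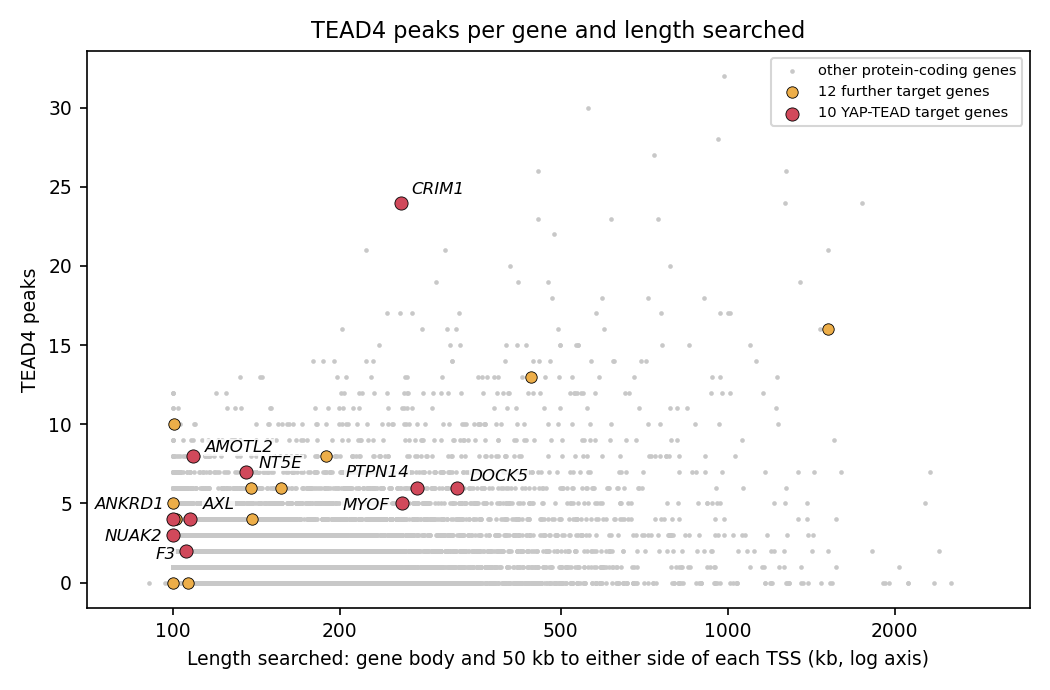
TEAD4 peaks per protein-coding gene (vertical axis) against the length searched in kb (horizontal log axis), with the 10 YAP-TEAD target genes in red and 12 further target genes in orange. CRIM1, with 24 peaks, stands above the other 9 members, which have 2 to 8.

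The signal value, the strength that the peak caller gave each peak in the combined list, was 98.3 at the median of the 69 peaks (range 8.18 to 774) and 68.1 over all 21113 peaks (6.57 to 1074). The 95% interval of the members' median, from the ranks of the 69 values taken as independent, was 68.3 to 136, with its lower end close to the median of the list. Of the 69 peaks, 63.8% (44 peaks) exceeded the median of all peaks, and 29.0% (20 peaks) were in the strongest 10% of the list. Each of the 10 genes had at least 1 peak in the strongest 10%, as did 11.4% of protein-coding genes, and 5 of the 10 (AXL, AMOTL2, NUAK2, PTPN14 and CRIM1) had a peak in the strongest 1%, as did 1.48%. The signal summed over the peaks of a gene was in the top 5% of protein-coding genes for 8 of the 10, all but DOCK5 and F3. This sum was not adjusted for the length searched, and a longer window can hold more peaks. Among these 8 genes the length ran from 100001 bp at ANKRD1 and NUAK2 to 276044 bp at PTPN14. The range within a gene was wide, from 40.2 to 765 at AMOTL2 and from 8.18 to 453 at CRIM1.

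**Figure D2:**
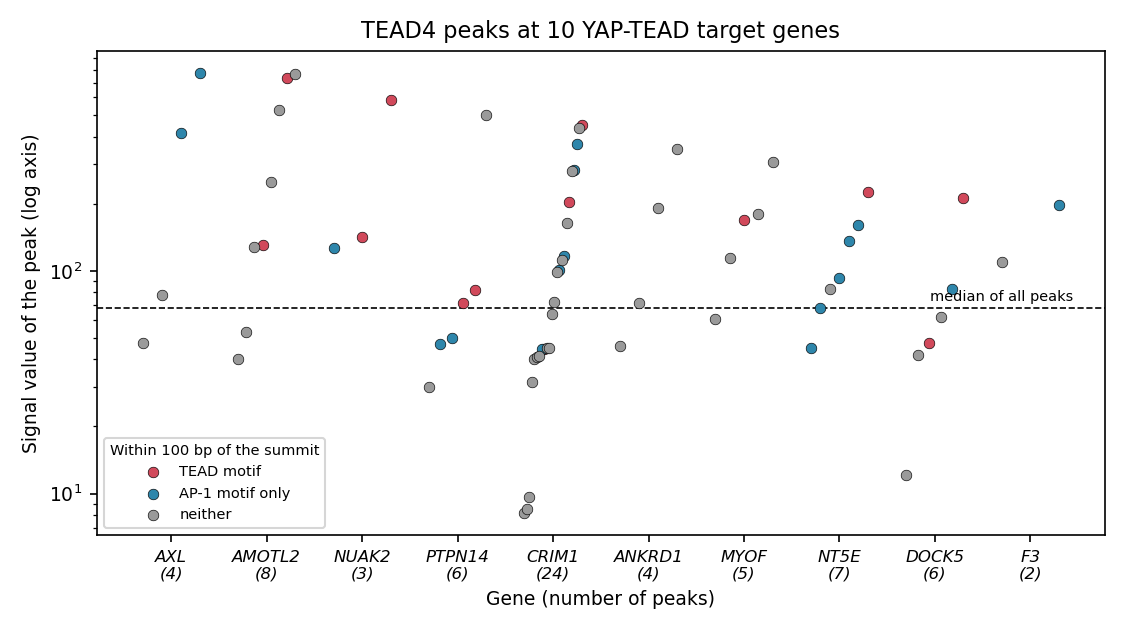
Signal value of each of the 69 peaks (log axis) by gene, ordered by the strongest peak, with the number of peaks in brackets. Colours give the motif within 100 bp of the summit, and the dashed line is the median of all 21113 peaks (68.1), which the strongest peak of each gene exceeds.

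AMOTL2, a member of the angiomotin family that binds YAP and holds it in the cytoplasm, had 8 peaks, and only 10 other protein-coding genes reached its summed signal of 2628. Of its 2 promoter peaks, the weaker (40.2) lay 2478 bp upstream of a TSS. The stronger (chr3:134374280-134374765, signal value 733) ranked 14 in the whole list. Its summit lay 45 bp downstream of an annotated TSS and 68 bp upstream of the canonical one, in an exon with no annotated coding sequence at that base. ACATTCC on the minus strand was centred 1 bp from this summit. A peak of similar signal value (765, rank 10) lay 39746 bp from the nearest AMOTL2 TSS, beyond the 3′ end of the gene (chr3:134326840-134327354). Its summit was in an exon of the long noncoding RNA gene LINC02004, and neither ACATTCC nor CATTCC was found within 250 bp of it. An intronic peak at chr3:134364046-134364507 had a signal value of 529. The other peak with ACATTCC was downstream (chr3:134331428-134331632, 130.0).

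PTPN14, a tyrosine phosphatase that also binds and restrains YAP, was the only member whose strongest peak was a promoter peak, meaning a summit within 2.5 kb of a TSS. That peak (chr1:214551646-214552102, signal value 498) lay 309 bp upstream of a TSS and held CATTCC without the preceding A. Like it, the other 5 peaks were all in introns, but they were much weaker, from 30.1 to 82.3. ACATTCC was present in 2 of these weak peaks (82.3 and 71.7), so at this gene the exact motif and the strongest signal were in different peaks. The peak of 71.7 was also a promoter peak, 1756 bp upstream of another TSS.

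NUAK2, a kinase linked to actin contractility, had 3 peaks, all past the 3′ end of the gene and none at its promoter. The strongest (chr1:205301371-205301785, signal value 583, rank 75) lay 20150 bp from the only annotated TSS, just beyond the gene, which ends at 205302063 on the minus strand. It held ACATTCC 12 bp from the summit. The next (chr1:205298535-205298756, 141) was the only peak of the 69 with 2 copies of ACATTCC, and the last (126) held an AP-1 motif 6 bp from its summit and lay nearer to a TSS of TMCC2 than to that of NUAK2.

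ANKRD1, an ankyrin repeat protein of nucleus and sarcomere that is widely used as a readout of YAP activity, had 4 peaks, all upstream. A pair of overlapping peaks covered the promoter, with summits 262 bp and 461 bp upstream of the TSS and signal values of 192 and 71.9 (chr10:90921181-90921480 and chr10:90921326-90921769). The strongest peak (chr10:90931075-90931517, 351) lay 10185 bp upstream. The most distant, 47817 bp upstream, had a signal value of 45.8. None of the 4 held ACATTCC within 100 bp of the summit, although the 351 peak held it within 250 bp. No AP-1 motif was found within 250 bp of any ANKRD1 summit.

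MYOF, a ferlin of the plasma membrane, had 5 peaks of 60.5 to 309 and none at a promoter. The strongest (chr10:93288957-93289327, 309) lay beyond the 3′ end of the gene, 34536 bp from the nearest TSS, and held 3 copies of CATTCC and no ACATTCC. The peak nearest to a TSS (chr10:93468499-93468785, 179.5) was intronic, 13548 bp from it. The intronic peak shown above for MYOF (chr10:93458791-93459079, 169.8) held ACATTCC and an AP-1 motif, 118 bp apart.

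DOCK5, an exchange factor that activates the small GTPase RAC, had 6 peaks of 12.1 to 212. The strongest (212), in an intron 10790 bp from a TSS, held ACATTCC and an AP-1 motif 36 bp apart. A downstream peak of 47.5, in the gene KCTD9 and closer to its TSS, also held both motifs, 51 bp apart. The peak nearest to a DOCK5 TSS was 9213 bp upstream (61.7). DOCK5 and MYOF thus supplied all 3 of the 69 peaks with both motifs.

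AXL, a receptor tyrosine kinase for the ligand GAS6, had the strongest single peak of all 10 genes (chr19:41223378-41223876, signal value 774, rank 8). It was intronic, 3125 bp upstream of the nearest of 5 annotated TSSs and 4407 bp downstream of the canonical one. It held 2 copies of CATTCC, both shown above, and an AP-1 motif 75 bp from the summit. A peak of 416 at chr19:41226010-41226401 lay 562 bp upstream of an internal TSS and held an AP-1 motif 2 bp from its summit, and the same interval was listed again with a second summit of 47.3. The peak nearest to a TSS, 128 bp away, had a signal value of 77.8.

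F3, which encodes tissue factor, the initiator of blood coagulation, had the fewest peaks. Both of its summits (198 and 109) lay about 38 kb upstream, in overlapping intervals at chr1:94579918-94580183 and chr1:94580062-94580505, the first 38322 bp from the TSS. The stronger held 2 copies of CATTCC and an AP-1 motif 85 bp from the summit. No peak lay in the F3 gene body, within 10 kb of its TSSs or downstream of it.

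NT5E, which encodes CD73, an ecto-enzyme that forms adenosine from AMP, had 7 peaks of 45.0 to 226 and none at a promoter. The strongest (chr6:85403666-85404009, 226) lay 45773 bp upstream and held ACATTCC 31 bp from the summit. The peak nearest to a TSS (chr6:85464219-85464448, 159.7) was intronic, 7029 bp from it, with an AP-1 motif 7 bp from the summit. An AP-1 motif was found in 5 of the 7 peaks and ACATTCC in 1, with no peak holding both.

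CRIM1, a transmembrane protein with cysteine-rich repeats that binds bone morphogenetic proteins, had 24 peaks, a number that 10 protein-coding genes reached or exceeded, itself included. Of the 24, 19 were in the gene body, 4 upstream and 1 downstream. Their median signal value was 68.1, as in the whole list, and 12 exceeded the median of the list. Merging overlapping peaks left 20 at this gene. The strongest (chr2:36486577-36487025, 453) was intronic, 7261 bp from the nearest TSS, and held ACATTCC 37 bp from its summit. A peak of nearly the same signal value (chr2:36372051-36372467, 439), also intronic, held CATTCC only. ACATTCC was also present at chr2:36381033-36381297 (204), 1 bp from the summit, and at chr2:36361426-36361869 (44.7). The peak nearest to a TSS (chr2:36367968-36368172, 98.3) lay 1040 bp upstream of an internal TSS. The downstream peak (283) lay 253 bp from a TSS of the neighbouring gene FEZ2 and held 2 AP-1 motifs.

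**Figure D3:**
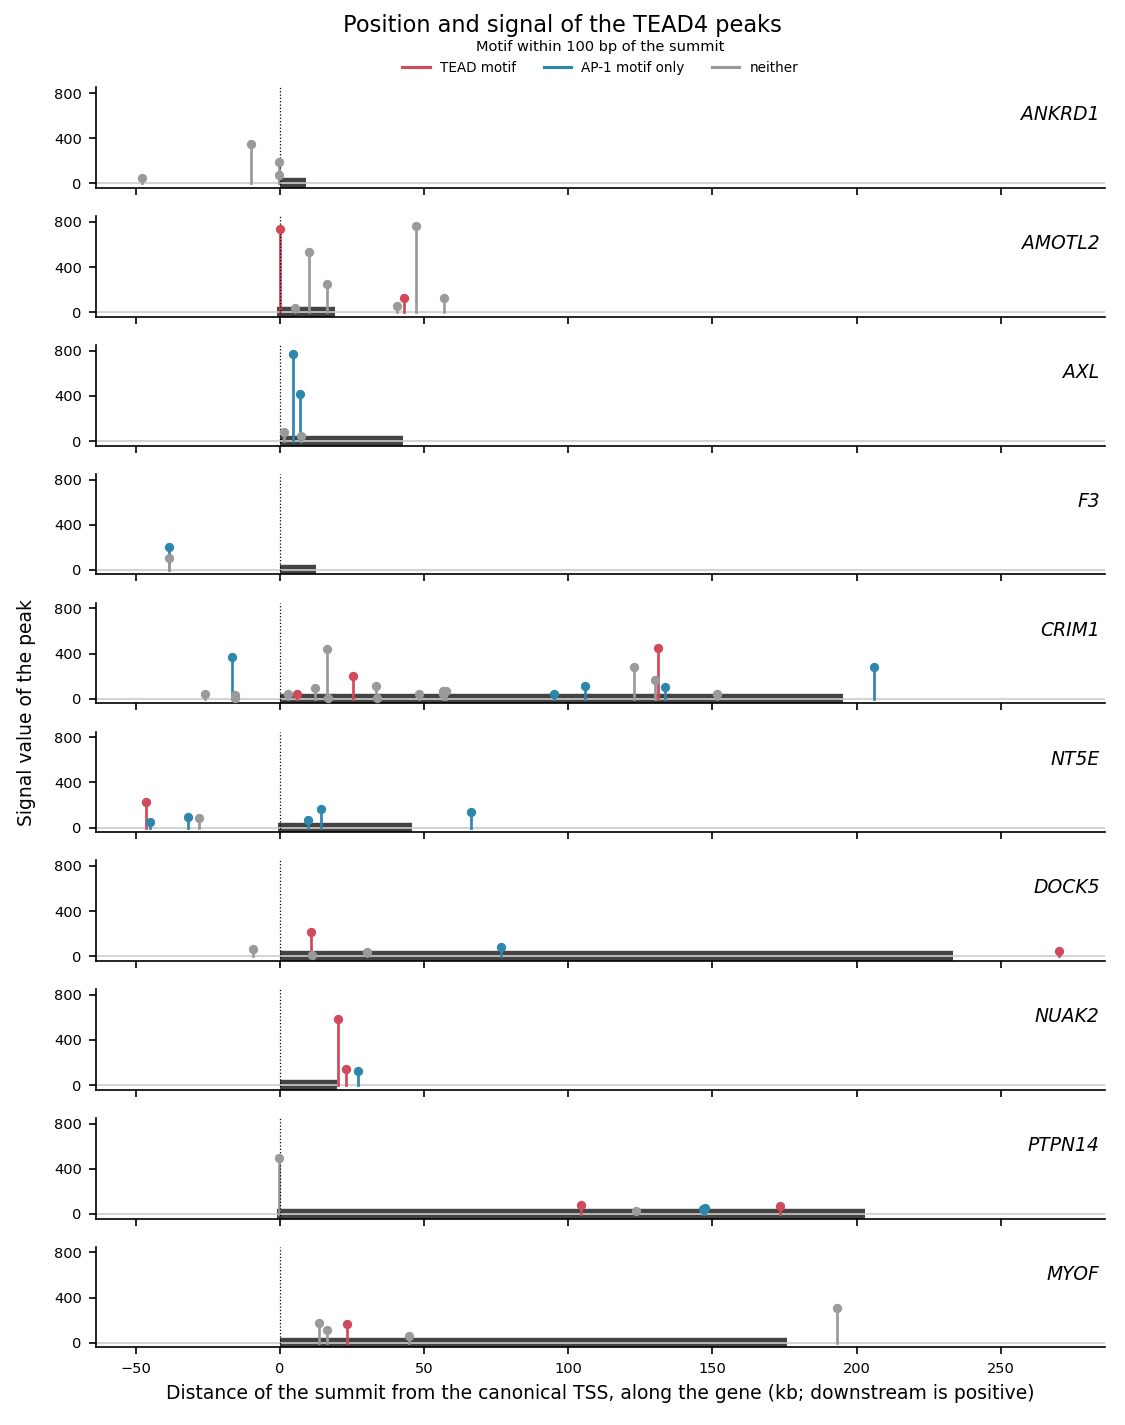
Signal value of each peak (vertical axis) by the distance in kb of its summit from the canonical TSS along the gene (horizontal axis, downstream positive), 1 panel per gene, with the gene body as a dark bar. Tall peaks stand at the TSS of AMOTL2 and PTPN14, inside AMOTL2, AXL and CRIM1, upstream of ANKRD1 and CRIM1, and beyond the 3′ end of AMOTL2, NUAK2 and MYOF.

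A promoter peak was present at 5 of the 10 genes (ANKRD1, AMOTL2, AXL, CRIM1 and PTPN14), against 16.7% of protein-coding genes. Promoter peaks were nonetheless a minority of the peaks at members, 12 of 69 (17.4%, Wilson 95% interval 10.2 to 28.0%). Only TSSs of the member itself counted for this share. Of all peaks, 18.9% lay within 2.5 kb of a TSS of any protein-coding gene, which is a wider measure. By that measure the CRIM1 peak 253 bp from a TSS of FEZ2 would also count. Of the 69 summits, 43 lay over 10 kb from any TSS of their gene. The strongest peak did so in 7 of the 10 genes, near the 68.3% of protein-coding genes with a peak. By position, 42 summits were in introns, 1 in an exon, 15 upstream and 11 downstream of the gene. The rule itself admits summits up to 50 kb from a TSS and anywhere in the gene body. Shares over all genes were not computed for the 43 summits or these positions, so they describe the members only. The median signal value was 88.0 for the 12 promoter peaks and 101 for the other 57. For 65 of the 69 peaks the member had the nearest TSS of any protein-coding gene, and for the other 4 it was FEZ2, SNX14, KCTD9 or TMCC2. At the 12 further target genes described below, the assigned gene was nearest for 69 of 76 peaks, and no such share was computed over all genes. Distance alone does not show which gene a peak acts on.

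ACATTCC lay within 100 bp of the summit, on either strand, in 13 of the 69 peaks (18.8%, Wilson 95% interval 11.4 to 29.6%) and in 23.0% of all peaks, so the share at members did not differ from the list by more than its counting error. The intervals cover counting error only and treat peaks of the same gene as independent, which they are not. CATTCC was present in 42.0% of the peaks at members and 46.8% of all peaks, and every copy of ACATTCC is also a copy of CATTCC. An AP-1 motif was present in 20 of the 69 peaks (29.0%, 19.6 to 40.6%) and 25.4% of all peaks. Both ACATTCC and AP-1 were present in 4.35% and 4.49%, and neither in 56.5% and 56.1%.

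By gene, 7 of the 10 had a peak with ACATTCC (all but ANKRD1, AXL and F3), against 24.2% of protein-coding genes. All 10 had a peak with CATTCC, against 40.2%, and 8 (all but ANKRD1 and AMOTL2) had a peak with an AP-1 motif, against 23.9%. Genes with more peaks have more chances to hold a motif, and per peak the shares at members were near those of the list. The strongest peak held ACATTCC in 4 of the 10 genes and CATTCC in 8, beside 28% and 55.8% of the 11245 protein-coding genes with a peak. The 13 peaks with ACATTCC had a median signal value of 169.8, and the 56 without it 83.1, while over all peaks the medians were 82.2 and 64.6 and at the 12 further target genes described below 81.3 and 81.4. Peaks with and without an AP-1 motif had medians of 121 and 82.3 at the members, and 71.8 and 66.6 over all peaks. The motif lay a median of 24 bp from the summit at members and 16 bp over all peaks, and GC content around the summit was 44.8% at the median in both. A motif match describes the sequence and does not show which protein was bound.

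**Figure D4:**
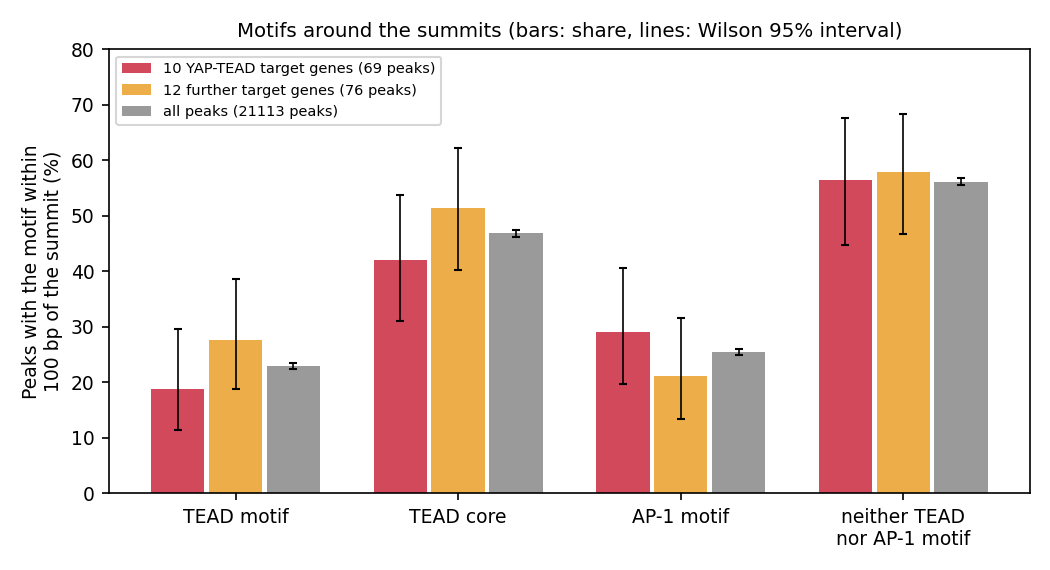
Share of peaks (%) with each motif within 100 bp of the summit at the 10 genes (69 peaks), at 12 further target genes (76 peaks) and in all 21113 peaks, with Wilson 95% intervals as lines. TEAD motif is ACATTCC, TEAD core is CATTCC, and the intervals at the target genes span the share of all peaks for each motif.

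The 10 genes belong to a signature of 22 YAP/TAZ targets, which was taken from background knowledge and not from the study. Its other 12 genes were read by the same rule. Of these, 10 had a peak and 9 a promoter peak, against 56.2% and 16.7% of protein-coding genes. The median was 5.5 peaks per gene as at the members, against 1 over all protein-coding genes. RBMS3, an RNA-binding protein, had 16 peaks over a window of 1513283 bp, or 1.06 per 100 kb beside a median of 0.67 over all genes. ASAP1, a GTPase-activating protein for ARF, had 13, and CCN1, a matricellular protein, had 10 over 100703 bp. IGFBP3, a carrier of insulin-like growth factors, and the forkhead factor FOXF2 had none. The 76 peaks at the 12 genes had a median signal value of 81.4, inside the interval of the members' median of 98.3 (68.3 to 136). Of these peaks 27.6% held ACATTCC (Wilson interval 18.8 to 38.6%), against 18.8% at the members (11.4 to 29.6%). These intervals overlap and both span the 23.0% of all peaks, so the shares were not told apart. By gene, 6 of the 12 had a peak with ACATTCC, against 7 of the 10 members.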

How the data were processed

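TEAD4 ChIP-seq peaks of LX-2 cells were analysed from a single deposited list. The authors mapped reads to hg38 with Chromap, ran the ENCODE IDR pipeline (irreproducible discovery rate, which scores how repeatable the rank of a peak is) and kept replicates 1 and 3. The peak caller is not given in the sources used here. The deposited columns used were the score (scaled IDR, lowest 830), the signal value, the −log10 q-value and the summit offset, all by the authors and all for the combined list. Their meaning was read from the layout and values of the list.

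Genes and TSSs were those of GENCODE release 44, with genes keyed by symbol. Summits were assigned by the rule in the opening. Motif searches took both strands of hg38, up to 100 bp from each summit. Peaks with overlapping intervals were counted separately. The tools were pysam 0.24.0, pandas 2.3.3, numpy 2.4.6, scipy 1.17.1 and matplotlib 3.10.9 under Python 3.11.15, and the code was tested on simulated data.

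The members, the further gene list, the motifs and the genes and peaks to be named were chosen with earlier results of these data known. Named peaks were the nearest to a TSS, the strongest and those with ACATTCC, and other peaks were named after their values were seen. Alternatives changed the distance, the TSSs, the set of peaks and the motif. Depth per sample is unknown, and Wilson 95% intervals give the counting precision of shares.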

Additional observations from a re-analysis of the deposited data

How the results depend on the processing

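In all, 14 alternative settings were used, each for some or all of the results. Of 67 values for the main results, 64 stayed close to those above. A count was taken as close when it was within 1.5 times of the main count. A median or share was taken as close when it lay inside the interval of the main value. These limits are wide, and 46 peaks with a distance of 10 kb counted as close to 69. So did a median signal value of 128 against 98.3, with only peaks of IDR score 1000. With only peaks above the median signal value, the members had 44 peaks with a median signal value of 167, against 114 over all such peaks. With CATTCC in place of ACATTCC, the motif share was 42.0% at members and 46.8% over all peaks. Of 90 peak counts of single genes, 11 moved by over 1.5 times, 9 lower and 2 higher. With a distance of 10 kb, 8 of the 10 genes had a peak (F3 and NUAK2 had none), against 34.0% of protein-coding genes. With 100 kb all 10 did, against 72.0%, F3 had 9 peaks and AMOTL2 16. Giving each peak only to its nearest gene left all 10 with a peak, against 32.8%. Of the 69 peaks, 16 overlapped another, and merging gave 61 regions. With canonical TSSs only, 4 genes had a promoter peak, against 11.0%. No paired analysis was possible because values are given for both replicates combined, and for the same reason no replicate could be left out.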

Other observations

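Of the 69 peaks at the 10 genes, 4 (5.80%) had a q-value above 0.05, beside 3.19% of all peaks. They were 3 at CRIM1 (signal values 9.65, 8.50 and 8.18) and 1 at DOCK5 (12.1), and each overlapped another peak of the same gene. The CRIM1 peak of 8.18 shared its interval with the peak of 439 and carried the highest IDR score, 1000, as did 79.7% of the 69 peaks and 76.1% of all peaks. Without these 4 peaks, the 10 genes had 65 peaks with a median signal value of 109.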
